A study of Homo sapiens with 18 samples.

Results

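KMT2C and KMT2D, paralogous histone methyltransferases, were each targeted by RNA interference in COLO357, a pancreatic ductal adenocarcinoma cell line. The transcriptomes of the transfected cells were set against each other. The comparison held 5 of the 18 libraries of the study: 3 COLO357 libraries transfected with KMT2C siRNA1, siRNA2 or siRNA3, and 2 COLO357 libraries transfected with KMT2D siRNA1 or siRNA2. They were chosen by cell line and siRNA target alone, so that no measured value entered the choice. The 1 COLO357 library with a control siRNA is shown beside them for direction and was not tested. All cells were taken 48 h after transfection, and ribosome-depleted total RNA was read as 100 nt paired ends from stranded libraries. The same 5 siRNAs and the control siRNA had also been transfected into PANC1 and SUIT2, the other pancreatic cancer lines of the study. Each siRNA gave 1 library per line, so the replicates of a target are different siRNAs, and nothing in the labels says that they came from separate cultures. The p-values therefore rest on the spread between libraries of different siRNAs, some of which may be technical.

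KMT2C and KMT2D place methyl groups on lysine 4 of histone H3, mainly at enhancers, where the mark accompanies the recruitment of acetyltransferases and the firing of nearby promoters. They sit in separate but alike complexes that share the core subunits WDR5, RBBP5, ASH2L and DPY30 with the other H3K4 methyltransferases and add the H3K27 demethylase KDM6A, PAXIP1 and NCOA6. Both genes are recurrently mutated in pancreatic cancer, and contrasting siRNAs against them asks which genes respond differently to the targeting of either paralog.

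The 5 libraries held 15822531 to 23950329 gene counts, and the control library 21244832. KMT2C siRNA3 stood apart: 30.4% of its read pairs lay in no annotated feature, against 13.5% and 13.1% with KMT2C siRNA1 and siRNA2, 12.1% and 10.2% with KMT2D siRNA1 and siRNA2 and 14.5% in the control. Protein-coding genes took 84.4% of its gene counts and 87.3% to 88.2% of those of the other COLO357 libraries. The list counts are given with and without this library. Epithelial markers were present in every library, with summed levels of the 8 markers EPCAM, KRT8, KRT18, KRT19, KRT7, CDH1, CLDN4 and MUC1 at 4495 to 4865 CPM (gene counts scaled to library size) with KMT2C siRNA, 4460 to 5267 CPM with KMT2D siRNA and 5341 CPM in the control. The sum does not show that each marker held its level, and the values of CLDN4 and MUC1, given further on, differed between libraries. The 8 leukocyte markers summed to at most 0.822 CPM with KMT2C siRNA and 0.655 CPM with KMT2D siRNA. The 8 endothelial markers summed to 28.9 to 42.4 CPM with KMT2C siRNA and 19.5 to 20.8 CPM with KMT2D siRNA. Their sum in the control was 17.4 CPM. CDH5 and EGFL7, given further on, made up most of it, and PECAM1 was at 0 in all 6 libraries. The 8 fibroblast markers summed to 67.2 to 154 CPM with KMT2C siRNA and 24.5 to 54.7 CPM with KMT2D siRNA. In the control they summed to 47.5 CPM.

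The targeted mRNAs followed their labels, KMT2D more clearly than KMT2C. KMT2C mRNA (ENSG00000055609) stood at 44.2, 56.2 and 77.0 CPM with KMT2C siRNA1, siRNA2 and siRNA3, against 83.9 and 87.8 CPM with KMT2D siRNA1 and siRNA2, and at 89.0 CPM in the control. In bulk RNA, fewer cells with a transcript and less of it per cell cannot be told apart. All 3 KMT2C libraries were below both KMT2D libraries, and the library of siRNA3, at 86.6% of control, was the closest to them. The log2 fold change of KMT2C over KMT2D siRNA was -0.57 (SE 0.232), with an adjusted p of 0.452 in edgeR's quasi-likelihood test. Without KMT2C siRNA3 it was -0.79 (SE 0.226, adjusted p = 0.769 by edgeR).

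KMT2D mRNA (ENSG00000167548) stood at 40.9, 41.7 and 70.5 CPM with KMT2C siRNA1, siRNA2 and siRNA3, against 14.2 and 14.0 CPM with KMT2D siRNA1 and siRNA2, and at 32.2 CPM in the control. The groups did not overlap, and the KMT2D libraries lay at 44.2% and 43.4% of control while the 3 KMT2C libraries lay at 127%, 129% and 219%. The contrast was thus 3.54-fold (log2 1.82, SE 0.275, adjusted p = 0.156 by edgeR), with the control library between the groups. KMT2D mRNA was most abundant in KMT2C siRNA3, the library with the most read pairs in no annotated feature; the part of that library's makeup in the value was not tested.

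**Figure D1:**
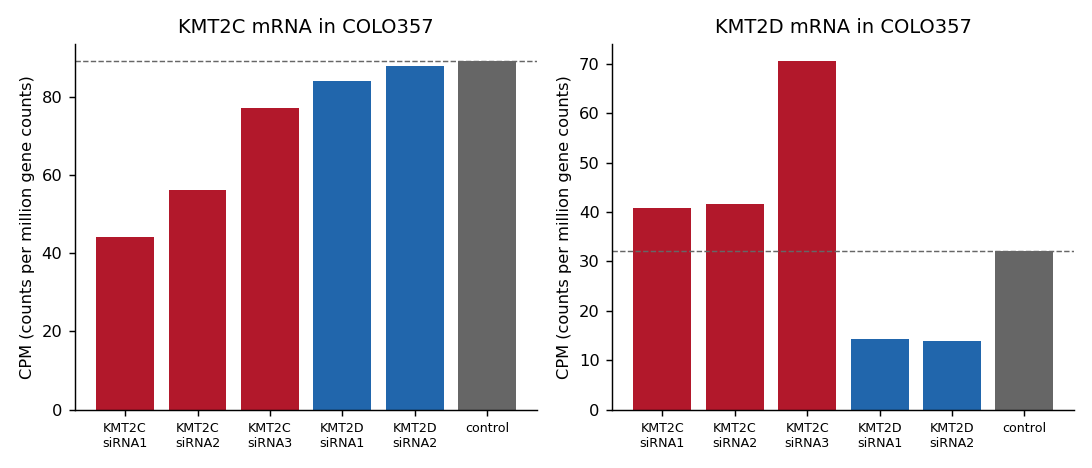
Levels of KMT2C (left) and KMT2D (right) mRNA in CPM, 1 bar for each COLO357 library, with KMT2C siRNA libraries in red, KMT2D siRNA libraries in blue and the control in grey; the dashed line marks the control. KMT2C was at 44.2 to 77.0 CPM in the red bars and 83.9 to 87.8 CPM in the blue ones, and KMT2D at 40.9 to 70.5 CPM in the red bars and 14.0 to 14.2 CPM in the blue ones.

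Across the transcriptome no gene passed the test. Of 17138 genes tested, edgeR's quasi-likelihood test with Benjamini-Hochberg adjustment called 0 (0%) at an adjusted p under 0.05, and the smallest adjusted p was 0.156. At an unadjusted p under 0.05 it listed 1777 genes (10.4%), of which 979 (5.71%) were higher and 798 (4.66%) lower with KMT2C siRNA. Limma-voom called 0 genes as well, with 1759 at an unadjusted p under 0.05, whereas DESeq2 on the same genes called 177 (1.03%), 83 higher and 94 lower. DESeq2 gave 2326 of the 17138 genes no adjusted p, so its adjustment ran over fewer genes than that of edgeR. All 177 were also among the 1777. The edgeR fit called 347 genes when no filter on low counts was applied, 154 higher and 193 lower, of which 340 were genes that the filter keeps and 167 were also called by DESeq2. Why these procedures differ was not tested.

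The counts are given here for the size of the difference and not as calls. Without KMT2C siRNA3, 944 genes were at an unadjusted p under 0.05 by edgeR (512 higher, 432 lower, of 16703) and 0 were called. The groups did not overlap in 2700 genes that were higher (15.8%) and 2158 that were lower (12.6%) with KMT2C siRNA. The median log2 fold change over all genes tested was 0.01, with quartiles of -0.22 and 0.27.

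The spread between siRNAs of a target was about as large as the difference between the targets. For pairs of libraries, the median absolute log2 difference over genes was 0.274 to 0.371 between a KMT2C and a KMT2D library. It was 0.297, 0.21 and 0.333 for the 3 pairs of KMT2C libraries and 0.316 for the pair of KMT2D libraries. The first principal component of log2 CPM, with 33.4% of the variance, set KMT2C siRNA1 and siRNA3 apart from the other 4 libraries. KMT2C siRNA2 lay on the side of the KMT2D libraries and the control there, and at the far end of the second component (23.6%).

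**Figure D2:**
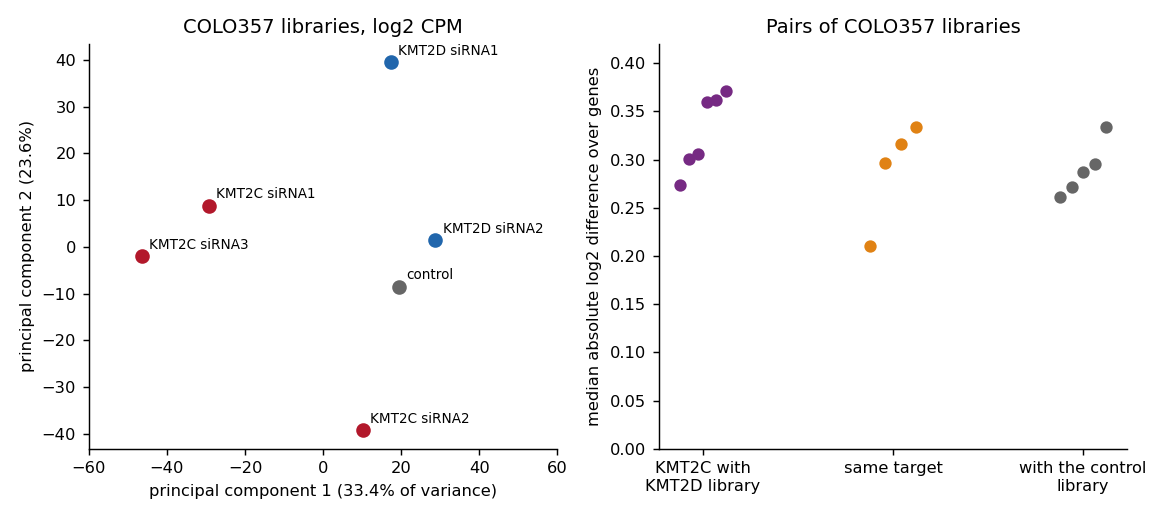
Left, the 6 COLO357 libraries on the first 2 principal components of log2 CPM (33.4% and 23.6% of the variance; KMT2C siRNA red, KMT2D siRNA blue, control grey); right, the median absolute log2 difference over genes for each pair of libraries, grouped by the kind of pair. Pairs of different targets (0.274 to 0.371) and pairs of the same target (0.21 to 0.333) overlap, and the KMT2C libraries do not gather on either component.

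The genes described next are KMT2D and 9 other genes of smallest p that were higher, and 9 that were lower, with KMT2C siRNA, at a mean of at least 2 CPM and with groups that do not overlap. The rule chose them by this contrast, so their separation is a description. All 19 had an adjusted p of 0.156 by edgeR and all were called by DESeq2, with adjusted p of 1.99e-07 to 0.000804.

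Of the genes higher with KMT2C siRNA, CCN1 and KRT80 are described first. CCN1 (ENSG00000142871), a secreted matricellular protein and target of YAP, stood at 67.3, 66.7 and 79.1 CPM with KMT2C siRNA1, siRNA2 and siRNA3, against 26.5 and 25.5 CPM with KMT2D siRNA1 and siRNA2, and at 45.0 CPM in the control. The control lay midway, with the 3 KMT2C libraries above it and both KMT2D libraries below, and the log2 fold change was 1.42 (SE 0.191). KRT80 (ENSG00000167767), a type II keratin, stood at 14.4, 8.58 and 11.1 CPM with KMT2C siRNA, against 2.27 and 2.51 CPM with KMT2D siRNA, and at 11.8 CPM in the control. Its KMT2C libraries lay around the control and its KMT2D libraries below it (log2 2.22, SE 0.307). KRT80 was the 1 gene called when the 18 libraries of the 3 lines were fitted together (adjusted p = 0.0441 by edgeR, 21028 genes tested). In that fit 1324 genes were at an unadjusted p under 0.05, and it treats the same siRNA in 3 lines as unrelated. With siRNA as a random block over the same libraries (correlation 0.26), limma-voom called 0 genes, with 1590 at an unadjusted p under 0.05, and gave KRT80 an adjusted p of 0.136. Over all alternatives its adjusted p ran from 4.53e-08, with edgeR and no filter on low counts, to 0.689, with edgeR and without KMT2C siRNA3.

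CDH5 (ENSG00000179776), VE-cadherin of endothelial junctions, stood at 28.6, 13.5 and 16.4 CPM with KMT2C siRNA, against 4.72 and 4.47 CPM with KMT2D siRNA, and at 5.84 CPM in the control. Here the KMT2D libraries lay close to the control and the KMT2C libraries above it (log2 2.06, SE 0.341). Of the other 7 endothelial markers, EGFL7 was at 12.3 to 17.8 CPM with KMT2C siRNA, 14.5 to 15.7 CPM with KMT2D siRNA and 11.2 CPM in the control. PECAM1 was at 0 and VWF, KDR, TEK, CLDN5 and ERG were at 0.378 CPM or less in all 6 libraries. COL16A1 (ENSG00000084636), a fibril-associated collagen, stood at 18.9, 13.0 and 15.3 CPM with KMT2C siRNA, against 4.72 and 5.80 CPM with KMT2D siRNA, and at 8.002 CPM in the control. All 3 KMT2C libraries were above the control and both KMT2D libraries below it (log2 1.55, SE 0.264).

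MTCL1 (ENSG00000168502), a microtubule cross-linking protein, stood at 164, 145 and 147 CPM with KMT2C siRNA, against 76.0 and 64.2 CPM with KMT2D siRNA, and at 106 CPM in the control. PDLIM7 (ENSG00000196923), an actin-associated PDZ and LIM protein, stood at 44.6, 53.01 and 50.2 CPM with KMT2C siRNA, against 22.3 and 21.8 CPM with KMT2D siRNA, and at 27.6 CPM in the control. Both were split around the control, with log2 fold changes of 1.09 for MTCL1 (SE 0.183) and 1.14 for PDLIM7 (SE 0.194). CMIP (ENSG00000153815), a signalling adaptor, stood at 57.2, 67.9 and 70.2 CPM with KMT2C siRNA, against 28.2 and 28.8 CPM with KMT2D siRNA, and at 46.6 CPM in the control (log2 1.17, SE 0.194). It had the same arrangement around the control.

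PIK3CB (ENSG00000051382), the p110-beta catalytic subunit of phosphoinositide 3-kinase, stood at 35.4, 44.7 and 47.9 CPM with KMT2C siRNA, against 19.1 and 16.03 CPM with KMT2D siRNA, and at 57.6 CPM in the control. All 5 siRNA libraries were below the control, the KMT2D libraries farther than the KMT2C libraries (log2 1.26, SE 0.215). FGFRL1 (ENSG00000127418), a fibroblast growth factor receptor that lacks the kinase domain, stood at 40.7, 44.9 and 41.3 CPM with KMT2C siRNA, against 21.1 and 18.5 CPM with KMT2D siRNA, and at 36.1 CPM in the control. The KMT2C libraries were a little above the control and the KMT2D libraries well below it (log2 1.08, SE 0.193).

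Of the genes lower with KMT2C siRNA, AGR2 and CSTA are described first. AGR2 (ENSG00000106541), a disulfide isomerase of the endoplasmic reticulum that serves mucin folding, stood at 47.4, 52.2 and 39.4 CPM with KMT2C siRNA, against 122 and 108 CPM with KMT2D siRNA, and at 109 CPM in the control. The KMT2D libraries were near the control and the KMT2C libraries far below it (log2 -1.34, SE 0.19). CSTA (ENSG00000121552), cystatin A of the cornified envelope, stood at 28.96, 26.8 and 20.2 CPM with KMT2C siRNA, against 63.0 and 52.7 CPM with KMT2D siRNA, and at 31.4 CPM in the control. Its KMT2C libraries were just below the control and its KMT2D libraries well above it (log2 -1.21, SE 0.213).

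TM4SF1 (ENSG00000169908), a tetraspanin-like surface protein, stood at 25.2, 14.0 and 17.3 CPM with KMT2C siRNA, against 47.2 and 75.4 CPM with KMT2D siRNA, and at 38.7 CPM in the control. FAT2 (ENSG00000086570), an atypical cadherin, stood at 12.2, 16.6 and 9.92 CPM with KMT2C siRNA, against 49.3 and 29.1 CPM with KMT2D siRNA, and at 32.0 CPM in the control. FLRT3 (ENSG00000125848), a leucine-rich repeat membrane protein, stood at 15.7, 14.8 and 17.9 CPM with KMT2C siRNA, against 51.0 and 30.6 CPM with KMT2D siRNA, and at 17.8 CPM in the control. In these 3 genes the KMT2D siRNAs differed from each other, siRNA2 being higher for TM4SF1 and siRNA1 for FAT2 and FLRT3, and the log2 fold changes were -1.74 (SE 0.293) for TM4SF1, -1.61 (SE 0.278) for FAT2 and -1.35 (SE 0.232) for FLRT3.

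The other 4 lower genes are an enzyme pair, a transcription factor and a secreted receptor. CROT (ENSG00000005469), the peroxisomal carnitine octanoyltransferase, stood at 13.9, 11.5 and 10.6 CPM with KMT2C siRNA, against 27.5 and 26.8 CPM with KMT2D siRNA, and at 27.3 CPM in the control. Like AGR2, it had KMT2D libraries at the level of the control (log2 -1.20, SE 0.207). SULT1E1 (ENSG00000109193), the estrogen sulfotransferase, stood at 0.687, 1.09 and 1.20 CPM with KMT2C siRNA, against 4.59 and 4.09 CPM with KMT2D siRNA, and at 1.74 CPM in the control (log2 -2.14, SE 0.316). FOXP2 (ENSG00000128573), a forkhead repressor, stood at 2.46, 2.69 and 2.91 CPM with KMT2C siRNA, against 7.16 and 8.43 CPM with KMT2D siRNA, and at 5.04 CPM in the control (log2 -1.56, SE 0.257). The control lay between the groups for both genes. TNFRSF11B (ENSG00000164761), the RANKL decoy receptor osteoprotegerin, stood at 1.72, 1.22 and 2.28 CPM with KMT2C siRNA, against 5.24 and 6.72 CPM with KMT2D siRNA, and at 1.41 CPM in the control (log2 -1.83, SE 0.32). Its KMT2D libraries were well above the control, and its KMT2C libraries lay on both sides of it.

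**Figure D3:**
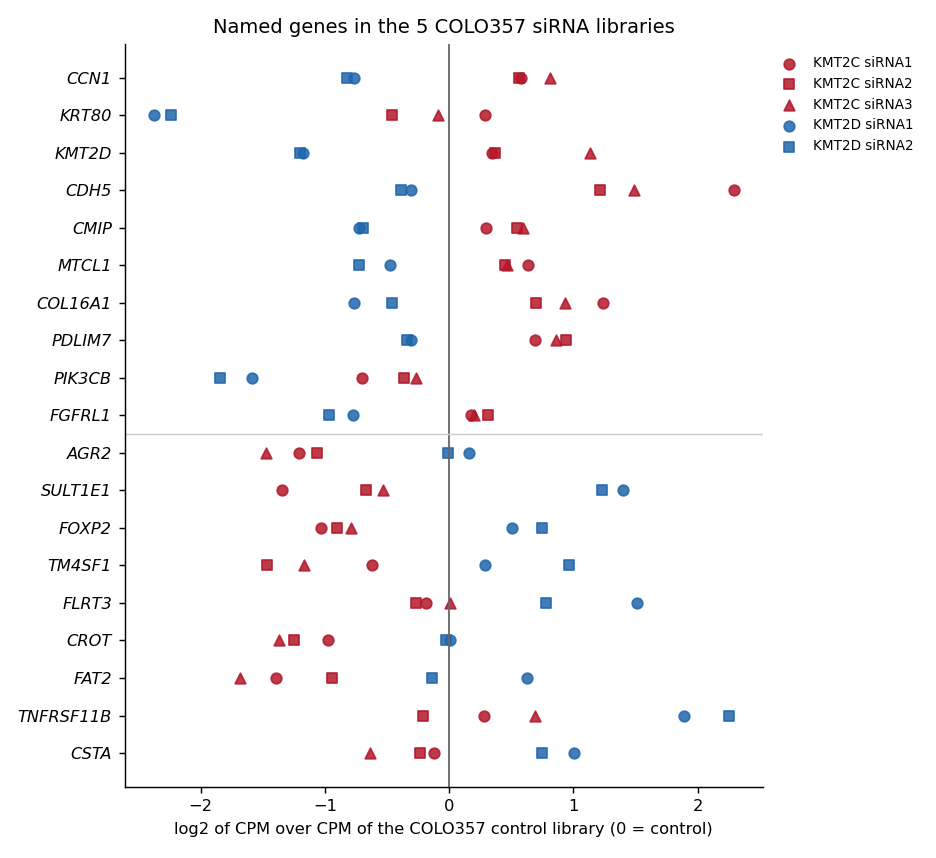
Log2 ratio of CPM in each siRNA library to the COLO357 control library (x axis, 0 is the control) for the 19 named genes (rows), with KMT2C siRNA1 to siRNA3 in red and KMT2D siRNA1 and siRNA2 in blue; the line between rows parts the genes that were higher from those that were lower with KMT2C siRNA. Red and blue points do not overlap in any row, as the naming rule required, and the control falls between them in some rows (CCN1, FOXP2) and outside both in others (PIK3CB).

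Where the control fell could be counted over all genes at an unadjusted p under 0.05. Of the 979 genes higher with KMT2C siRNA, 607 (62%) had all 3 KMT2C libraries above the control, 706 (72.1%) had both KMT2D libraries below it and 336 (34.3%) had both. Of the 798 lower genes, 524 (65.7%) had all 3 KMT2C libraries below the control, 567 (71.1%) had both KMT2D libraries above it and 294 (36.8%) had both. All 5 siRNA libraries lay above the control in 84 (8.58%) of the higher and 56 (7.02%) of the lower genes. They lay below it in 32 (3.27%) and 55 (6.89%). Over all 17138 genes tested, 28.6% had all 3 KMT2C libraries above the control, 31.1% had both KMT2D libraries below it and 3.54% had both. All 3 KMT2C libraries were below the control in 23.2%, both KMT2D libraries above it in 32.8%, and both in 2.96%. Of all genes tested, 15.96% had all 5 siRNA libraries above the control and 12.44% had all 5 below it. These shares were larger than those among the higher or the lower genes. Choosing genes by this contrast itself places the groups on opposite sides of the control more often, so the shares are a description. The control is 1 library that every siRNA library shares here, so its own deviation enters each of these counts.

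Among the lists of genes described next, edgeR called no member, and the counts are of members at an unadjusted p under 0.05, to be read against 5.71% higher and 4.66% lower of all genes. Members beyond the 2 of smallest p in a list were named after their values were seen. Without KMT2C siRNA3 the shares to read the counts against are 3.07% higher and 2.59% lower of 16703 genes. No list was tested as a whole, and nothing is claimed to be particular to a list.

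The chromatin partners of the targets came first. Of 9 measured genes of the KMT2C and KMT2D complexes, 8 had a positive log2 fold change (median 0.14), KMT2D and NCOA6 (0.64) being at an unadjusted p under 0.05 on the higher side and KMT2C on the lower. The shared subunits ASH2L (0.40), RBBP5 (0.13), DPY30 (0.07) and WDR5 (0.06) and the demethylase KDM6A (0.14) were not. Of 10 other H3K4 methyltransferases and partners tested, 4 were at that p on the higher side and 0 on the lower (median 0.35). SETD1A, a catalytic subunit of the promoter-bound methyltransferase complex, stood at 24.4, 25.8 and 39.7 CPM with KMT2C siRNA, against 14.0 and 13.8 CPM with KMT2D siRNA, and at 15.3 CPM in the control (log2 1.08, SE 0.251, adjusted p = 0.237 by edgeR). HCFC1, a cell-cycle cofactor that binds these complexes, stood at 115, 113 and 165 CPM with KMT2C siRNA, against 63.3 and 73.4 CPM with KMT2D siRNA, and at 87.5 CPM in the control (log2 0.91, SE 0.222, adjusted p = 0.253 by edgeR). SETD1B (0.98) and KMT2A (0.65) were the other members, and in all 4 the library of KMT2C siRNA3 was the highest.

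Of 19 Polycomb and enhancer acetyltransferase genes, 4 were at that p on the higher side and 1 on the lower (median 0.10). The acetyltransferase EP300 stood at 57.4, 67.5 and 95.3 CPM with KMT2C siRNA, against 40.4 and 46.8 CPM with KMT2D siRNA, and at 46.9 CPM in the control. KAT2B, another acetyltransferase, stood at 13.8, 17.1 and 10.7 CPM with KMT2C siRNA, against 19.8 and 24.1 CPM with KMT2D siRNA, and at 20.3 CPM in the control. The log2 fold changes were 0.72 for EP300 and -0.69 for KAT2B, and KDM6B (1.15) and CREBBP (0.56) were also on the higher side. Without KMT2C siRNA3, 0 of the 19 were at that p in either direction.

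Several genes of DNA replication had higher values with KMT2C than with KMT2D siRNA. Of 24 G1/S and DNA replication genes, 19 had a positive value (median 0.26), 5 were at an unadjusted p under 0.05 on the higher side and 0 on the lower. POLA1, the catalytic subunit of DNA polymerase alpha, stood at 72.6, 78.6 and 75.1 CPM with KMT2C siRNA. It stood at 34.6 and 47.3 CPM with KMT2D siRNA, and at 83.7 CPM in the control. E2F1, the transcription factor of S-phase entry, stood at 47.3, 45.2 and 53.2 CPM with KMT2C siRNA, against 31.4 and 25.9 CPM with KMT2D siRNA, and at 40.7 CPM in the control. The KMT2C libraries were a little below the control for POLA1 and above it for E2F1, and the KMT2D libraries of both genes were below it. The log2 fold changes were 0.85 (SE 0.209, adjusted p = 0.256) for POLA1 and 0.74 (SE 0.193, adjusted p = 0.291) for E2F1 by edgeR. TYMS (0.68), CLSPN (0.69) and POLE (0.50) completed the 5, and without KMT2C siRNA3 the higher count was 4.

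Of 24 genes of G2/M and mitosis, 2 were at that p, both higher, although the list's median was -0.02. The proliferation antigen MKI67 stood at 661, 782 and 875 CPM with KMT2C siRNA, against 386 and 497 CPM with KMT2D siRNA, and at 766 CPM in the control (log2 0.78, SE 0.212, adjusted p = 0.31 by edgeR). The mitotic kinase PLK1 had a log2 fold change of 0.51. Of 22 DNA damage genes, 3 were at that p on the higher side and 1 on the lower (median 0.11). MDC1, the mediator of the damage checkpoint at phosphorylated H2AX, stood at 43.9, 43.8 and 65.1 CPM with KMT2C siRNA, against 23.5 and 15.6 CPM with KMT2D siRNA, and at 48.3 CPM in the control (log2 1.36, SE 0.257, adjusted p = 0.167 by edgeR). H2AX (0.49) was also on the higher side and NBN (-0.43) on the lower.

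Of 22 CDK inhibitors and p53 targets, 1 was at that p on the higher side and 3 on the lower (median -0.09). CDKN1A, the p21 inhibitor of cyclin-dependent kinases, stood at 94.0, 64.4 and 76.3 CPM with KMT2C siRNA, against 28.4 and 51.5 CPM with KMT2D siRNA, and at 25.8 CPM in the control. All 5 libraries were above the control and the groups did not overlap (log2 0.93, SE 0.287, adjusted p = 0.34 by edgeR). The death receptor FAS (-0.74), the inhibitor CDKN2B (-0.75) and the stress protein SESN1 (-0.68) were on the other side.

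Genes of epithelial state had values of both signs. Of 17 basal-like pancreatic tumour genes, 14 had a negative value (median -0.35), 4 were at an unadjusted p under 0.05 on the lower side and 1 on the higher. TP63, the transcription factor of basal and squamous epithelium, stood at 41.0, 64.1 and 49.6 CPM with KMT2C siRNA, against 106 and 86.5 CPM with KMT2D siRNA, and at 61.2 CPM in the control (log2 -0.92, SE 0.218, adjusted p = 0.242 by edgeR). IL20RB (-0.92) and S100A2 (-0.51) were lower as well. TNS4, a focal adhesion tensin, went the other way (1.37) and was high with KMT2C siRNA1 and siRNA3, at 160 and 254 CPM, and not with siRNA2, at 87.6 CPM, against 55.7 and 70.8 CPM with KMT2D siRNA.

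Of 7 classical pancreatic tumour genes that could be tested, 3 were at that p on the lower side and 1 on the higher (median -0.49). After AGR2 came ANXA10, a gastric-type annexin, at 128, 146 and 93.9 CPM with KMT2C siRNA, against 252 and 275 CPM with KMT2D siRNA, and at 230 CPM in the control. Its KMT2C libraries were all below the control and its KMT2D libraries slightly above (log2 -1.13, SE 0.217, adjusted p = 0.167 by edgeR). The tetraspanin TSPAN8 (-1.13) was lower as well, and the trefoil peptide TFF1 (1.81) was higher, at 5.61, 1.68 and 5.50 CPM with KMT2C siRNA, against 0.874 and 1.46 CPM with KMT2D siRNA.

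Of 7 mucins tested, all 7 had a positive value (median 0.77) and 3 were at that p. The transmembrane mucin MUC1 stood at 29.9, 32.7 and 49.5 CPM with KMT2C siRNA, against 12.8 and 20.6 CPM with KMT2D siRNA, and at 27.1 CPM in the control. MUC5B, a gel-forming mucin, stood at 14.99, 19.04 and 24.6 CPM with KMT2C siRNA, against 11.1 and 11.3 CPM with KMT2D siRNA, and at 14.5 CPM in the control. The log2 fold changes were 1.13 for MUC1, 0.77 for MUC5B and 0.86 for MUC6, so the mucins lay opposite to AGR2, which serves their folding. Without KMT2C siRNA3 the count was 3 as well.

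Of 19 keratins and cornified envelope genes, 1 was at that p on the higher side, KRT80, and 4 on the lower (median 0.04, negative under 5 of the alternative settings). SCEL, a cornified envelope precursor, stood at 13.8, 13.7 and 22.6 CPM with KMT2C siRNA, against 33.4 and 53.03 CPM with KMT2D siRNA, and at 25.2 CPM in the control (log2 -1.41, SE 0.287, adjusted p = 0.193 by edgeR). The basal keratin KRT5, the most abundant of these members, stood at 886, 1364 and 1122 CPM with KMT2C siRNA, against 1895 and 1723 CPM with KMT2D siRNA, and at 1408 CPM in the control (log2 -0.71). KRT15 (-1.14) and KRT4 (-2.10) were the others, KRT4 at 0.687, 0.673 and 1.83 CPM with KMT2C siRNA, against 3.01 and 5.68 CPM with KMT2D siRNA.

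Junction and mesenchymal genes were mixed. Of 21 epithelial junction genes, 3 were at that p on the higher side and 1 on the lower (median 0.33). The tight junction claudin CLDN1 stood at 111, 109 and 120.1 CPM with KMT2C siRNA, against 195.0 and 208 CPM with KMT2D siRNA, and at 63.5 CPM in the control, so that all 5 libraries were above the control and the KMT2D libraries farther (log2 -0.86, SE 0.171, adjusted p = 0.178 by edgeR). The splicing regulator ESRP2 (0.69) and the junction proteins CGN (1.00) and TJP1 (0.51) were on the higher side. Of 19 mesenchymal genes, 5 were at that p on the lower side and 1 on the higher (median -0.17). The gelatinase MMP2 stood at 6.35, 14.4 and 4.49 CPM with KMT2C siRNA, against 18.5 and 23.3 CPM with KMT2D siRNA, and at 15.3 CPM in the control (log2 -1.32), and vimentin, VIM, had a log2 fold change of -0.87. TNC (-0.63), SNAI2 (-0.65) and ZEB1 (-0.53) were the other lower members and FOXC2 (1.07) the higher. Without KMT2C siRNA3, 2 mesenchymal genes were at that p on the lower side, and without KMT2D siRNA2 the median was 0.06. The 8 fibroblast markers summed to 67.2 to 154 CPM with KMT2C siRNA, 24.5 to 54.7 CPM with KMT2D siRNA and 47.5 CPM in the control, most of it COL1A1, and DCN was at 0.0632 CPM or less in each COLO357 library. Their part in these values was not tested.

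Of 22 matrix and integrin genes, 7 were at that p on the lower side and 1 on the higher (median -0.16). The laminin receptor subunit ITGA6 stood at 433, 397 and 424 CPM with KMT2C siRNA, against 761.7 and 599 CPM with KMT2D siRNA, and at 508 CPM in the control (log2 -0.72, SE 0.177, adjusted p = 0.256 by edgeR). The matrix metalloproteases MMP13 (-1.81) and MMP7 (-1.37) had the smallest p but low levels, at most 1.57 CPM for MMP13 and 4.81 CPM for MMP7. COL17A1 (-1.09), LAMA3 (-0.53), ITGB8 (-0.66) and ITGAV (-0.57) completed the lower side and ITGB6 (0.61) stood on the other. Without KMT2C siRNA3 the lower count was 4.

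Several detoxification genes had lower values with KMT2C than with KMT2D siRNA. Of 22 NRF2 targets and aldo-keto reductases, 16 had a negative value (median -0.23), 6 were at an unadjusted p under 0.05 on the lower side and 0 on the higher. AKR1B10, a reductase of retinal and lipid aldehydes, stood at 85.2, 64.6 and 77.9 CPM with KMT2C siRNA, against 211 and 129 CPM with KMT2D siRNA, and at 345 CPM in the control. All 5 libraries were below the control, the KMT2C libraries farther (log2 -1.18, SE 0.225, adjusted p = 0.167 by edgeR). AKR1C3, a ketosteroid reductase, stood at 535, 620 and 390 CPM with KMT2C siRNA, against 1022 and 1028 CPM with KMT2D siRNA, and at 696 CPM in the control, which lay between the groups (log2 -1.02, SE 0.219, adjusted p = 0.202 by edgeR). AKR1C1 (-0.89), AKR1C2 (-0.80), GSR (-0.53) and GCLC (-0.42) were the others, and the AKR1C genes are near-identical copies that may share reads. Without KMT2C siRNA3 the lower count was 4.

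Of 22 aldehyde dehydrogenases and retinoid genes, 4 were at that p on the lower side and 2 on the higher (median -0.14). ALDH1A1, a retinaldehyde dehydrogenase, stood at 96.1, 107 and 73.9 CPM with KMT2C siRNA, against 177 and 236 CPM with KMT2D siRNA, and at 190 CPM in the control. ALDH3A1, which oxidises aromatic and lipid aldehydes, stood at 216, 198 and 175 CPM with KMT2C siRNA, against 293 and 439 CPM with KMT2D siRNA, and at 355 CPM in the control. In both the 3 KMT2C libraries were below every other COLO357 library, with log2 fold changes of -1.19 (SE 0.225, adjusted p = 0.167) for ALDH1A1 and -0.93 (SE 0.222, adjusted p = 0.242) for ALDH3A1 by edgeR. ALDH9A1 (-0.47) and the retinoic acid receptor RARB (-0.59) were also lower, whereas the receptors RARG (0.81) and RARA (0.84) were higher.

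Several immediate early and inflammatory genes were high in 2 of the 3 KMT2C libraries. Of 20 MAPK feedback and immediate early genes, 7 were at an unadjusted p under 0.05 on the higher side and 1 on the lower (median 0.27). FOSL1, a subunit of the AP-1 transcription factor, stood at 15.3, 7.95 and 29.8 CPM with KMT2C siRNA, against 6.25 and 5.97 CPM with KMT2D siRNA, and at 6.02 CPM in the control. EGR1, a zinc finger factor induced by growth signals, stood at 12.5, 5.09 and 21.7 CPM with KMT2C siRNA, against 5.94 and 3.72 CPM with KMT2D siRNA, and at 2.82 CPM in the control. With KMT2C siRNA1 and siRNA3 both genes were clearly above the KMT2D libraries, while with KMT2C siRNA2 EGR1 lay between them (log2 1.497, SE 0.469, adjusted p = 0.36 for FOSL1 and 1.41, SE 0.523, adjusted p = 0.42 for EGR1 by edgeR).

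The others on that side were IER3 (1.01), IER2 (0.70), SPRY2 (0.59), DUSP4 (0.50) and ETV4 (0.68), and without KMT2C siRNA3 the count was 2 higher and 2 lower. The chromatin protein HMGA2 had the smallest p of the list and the opposite sign, at 14.7, 10.6 and 8.28 CPM with KMT2C siRNA, against 30.4 and 24.2 CPM with KMT2D siRNA, and at 10.4 CPM in the control (log2 -1.31, SE 0.259, adjusted p = 0.178 by edgeR). Its KMT2C libraries lay around the control and its KMT2D libraries above it.

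Of 26 interferon response genes, 24 had a positive value (median 0.35) and 3 were at that p, all higher. OAS3, the 2′-5′ oligoadenylate synthetase that senses double-stranded RNA, stood at 184, 119 and 206 CPM with KMT2C siRNA, against 72.6 and 86.6 CPM with KMT2D siRNA, and at 97.7 CPM in the control (log2 1.06, SE 0.252, adjusted p = 0.242 by edgeR). ISG20, an exonuclease, had a log2 fold change of 1.23 and IRF7, a transcription factor at 1.09 CPM or less, 1.07. The median depended on a single library, being -0.13 without KMT2D siRNA2. Of 19 NF-kB and inflammatory cytokine genes, 15 had a positive value (median 0.60) and 2 were at that p, IL1B (1.21) and ICAM1 (0.76). IL1B, an inflammatory cytokine, stood at 5.04, 1.68 and 6.19 CPM with KMT2C siRNA, against 1.97 and 1.63 CPM with KMT2D siRNA, and at 0.753 CPM in the control, so that KMT2C siRNA2 again lay with the KMT2D libraries. Without KMT2C siRNA3, 0 of 18 were at that p.

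Of 23 YAP and TGF-beta targets, 4 were at that p on each side (median 0.03): CCN1, CCN2 (0.86), LATS2 (0.86) and AMOTL2 (0.80) higher, and YAP1 (-0.52), ID1 (-0.48), ID2 (-0.87) and PTPN14 (-0.41) lower. LATS2, a kinase that restrains YAP, stood at 44.0, 37.2 and 49.7 CPM with KMT2C siRNA, against 28.1 and 19.5 CPM with KMT2D siRNA, and at 33.8 CPM in the control. YAP1 itself stood at 1259, 1232 and 1217 CPM with KMT2C siRNA, against 1581 and 1904 CPM with KMT2D siRNA, and at 1386 CPM in the control. The control lay between the groups for both genes.

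Of 24 receptor tyrosine kinase and PI3 kinase genes, 3 were at that p on the higher side, PIK3CB, MST1R (0.66) and EPHA2 (0.70), and 2 on the lower, MET (-0.55) and ERBB4 (-0.72), with a median of 0.03. MET, the hepatocyte growth factor receptor, stood at 151, 133 and 139 CPM with KMT2C siRNA, against 180.3 and 223 CPM with KMT2D siRNA, and at 63.6 CPM in the control. Like CLDN1 it was above the control in all 5 libraries. Of 17 WNT genes, 4 were at that p on the higher side and 3 on the lower (median 0.32). The ligand WNT5A stood at 71.3, 63.1 and 87.2 CPM with KMT2C siRNA, against 132 and 119 CPM with KMT2D siRNA, and at 132 CPM in the control (log2 -0.79), and the transcription factor TCF7 had a log2 fold change of 0.99.

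The remaining lists follow with their counts. No member was at an unadjusted p under 0.05 among 17 MHC class I genes (median 0.04) and 22 genes of ribosome biogenesis (median 0.02). Of 22 Notch genes, 1 was, the coactivator MAML2 (-0.82), of 24 glycolysis genes 1, ENO2 (0.90), of 20 HOX genes 1, HOXA3 (0.78), and of 15 RNA interference genes 1, the argonaute AGO2 (0.59). Of 24 genes that make cholesterol and fatty acids, 2 were, the sterol regulator SREBF2 (0.66) and the fatty acid synthase FASN (0.62), both higher. Of 22 unfolded protein and amino acid stress genes, 3 were higher, among them the chaperone HSPA5 (0.60), and 2 lower, among them DNAJB9 (-0.59). Of 16 endoderm transcription factors, 3 were lower, EHF (-0.63), HNF4G (-0.67) and NR5A2 (-1.54, at 1.13 CPM or less). Of 20 housekeeping genes, 2 were lower, RPL13A (-0.65) and PPIA (-0.49). A p that misses the threshold does not show that a gene was equal in the 2 groups.

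Without KMT2C siRNA3, the counts higher and lower at an unadjusted p under 0.05 were 1 and 1 of 9 for the KMT2C and KMT2D complexes and 3 and 0 of 10 for other H3K4 methyltransferases. They were 1 and 0 of 24 for G2/M, 2 and 0 of 22 for DNA damage and 1 and 2 of 22 for p53 targets. Among epithelial lists they were 1 and 3 of 16 for basal-like, 1 and 3 of 7 for classical, 1 and 4 of 19 for keratin and 1 and 1 of 21 for junction genes. They were 3 and 2 of 22 for aldehyde dehydrogenases, 3 and 0 of 26 for interferon genes, 4 and 2 of 23 for YAP and TGF-beta targets, 2 and 3 of 24 for receptor tyrosine kinases and 1 and 2 of 17 for WNT genes. Among the lists of few members at that p, they were 3 and 1 of 22 for unfolded protein stress, 2 and 0 of 24 for cholesterol and fatty acids, 0 and 1 of 14 for endoderm factors and 1 and 0 of 24 for glycolysis. They were 0 and 1 of 22 for Notch, 1 and 0 of 15 for RNA interference and 0 and 1 of 20 for housekeeping genes, and 0 in both directions for HOX, MHC class I and ribosome genes.

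The list medians rested on few libraries. The G1/S median was 0.12 without KMT2D siRNA2 and 0.40 without KMT2C siRNA2. The NF-kB median was 0.29 without KMT2C siRNA1, 0.85 without KMT2C siRNA2 and 0.11 with the replicate block. The interferon median was 1.20 without KMT2D siRNA1. The median of other H3K4 methyltransferases was 0.21 without KMT2D siRNA2 and 0.57 without KMT2D siRNA1, that of the complexes 0.03 and 0.33, and that of DNA damage genes -0.07 and 0.24 without the same libraries. The Polycomb median was 0.01 without KMT2C siRNA3 and 0.20 without KMT2C siRNA2. The basal-like median was -0.52 without KMT2C siRNA1 and -0.13 without KMT2D siRNA2, and the classical median was -0.89 without KMT2D siRNA1 and -0.34 without KMT2D siRNA2. The junction median was 0.17 without KMT2C siRNA1 and 0.08 by limma-voom with siRNA as a random block. The mesenchymal median was -0.51, the NRF2 median -0.43, the aldehyde dehydrogenase median -0.33 and the MAPK median 0.47 without KMT2C siRNA2. Without KMT2C siRNA3 the NRF2 median was -0.14, the aldehyde dehydrogenase median -0.08 and the MAPK median 0.10. The matrix median was -0.43 without KMT2D siRNA1 and -0.08 without KMT2D siRNA2, and the WNT median was 0.58 without KMT2D siRNA2. The medians of the G2/M, p53, MHC class I, keratin, ribosome and receptor tyrosine kinase lists were positive without some library and negative without another.

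**Figure D4:**
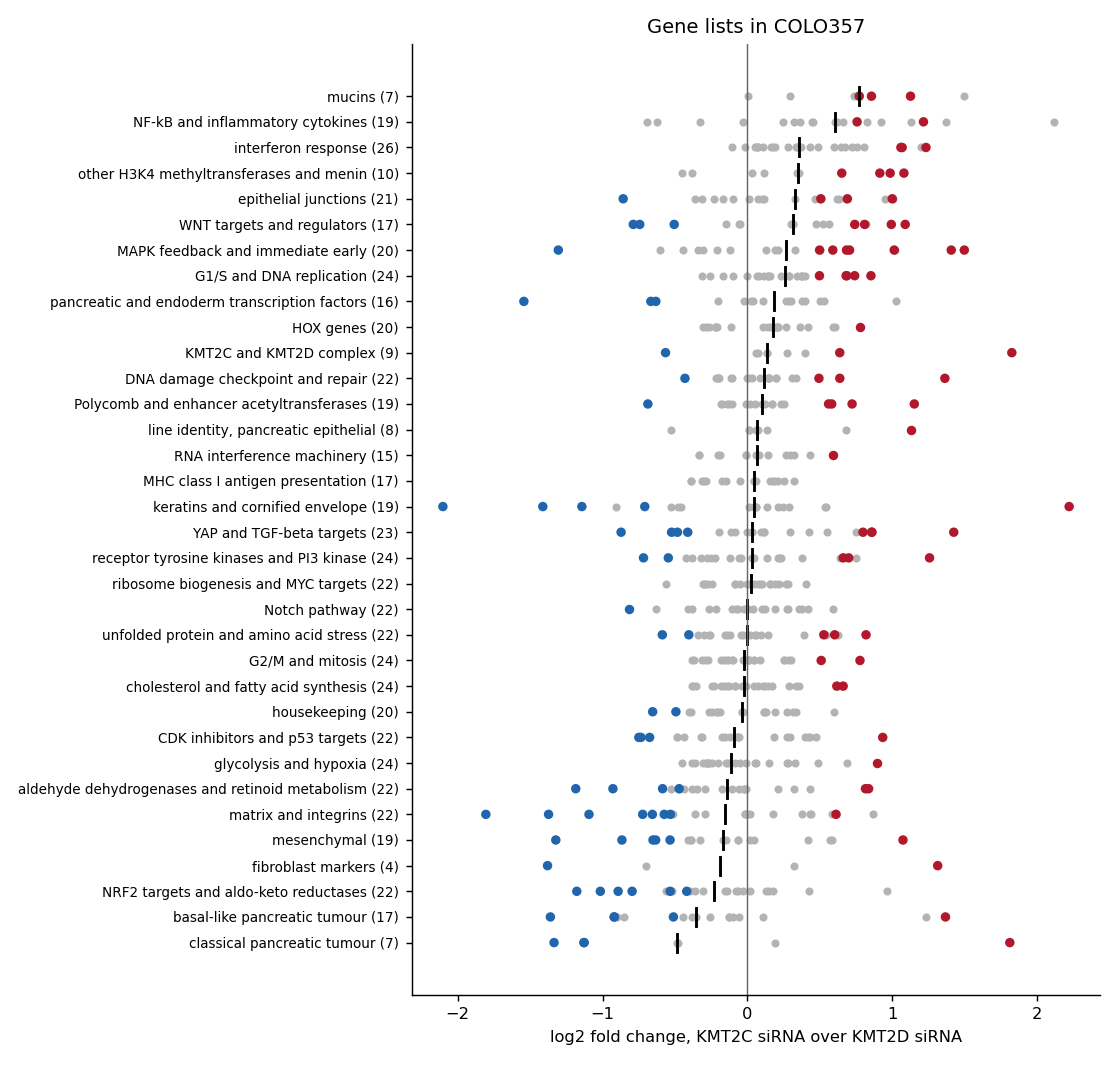
Log2 fold change of KMT2C over KMT2D siRNA in COLO357 (x axis) for the tested members of each gene list (rows, number tested in brackets), with members at an unadjusted p under 0.05 in red where higher and blue where lower, other members in grey and the list's median as a black bar. The lists drawn are ordered by their median, which runs from -0.49 for classical tumour genes to 0.77 for mucins, and most have members on both sides of 0. The endothelial list (2 members tested, median 0.99), the leukocyte list (1 tested) and the mitochondrially encoded list (none tested) are not drawn.

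The contrast was next followed into PANC1 and SUIT2, whose libraries are separate but were made with the same 5 siRNAs, so that an effect of the target and another effect of the same siRNA cannot be told apart. In PANC1 the library labelled KMT2C siRNA2 held KMT2C mRNA at 123% of the PANC1 control, and those of siRNA1 and siRNA3 at 65.3% and 72.9%. KMT2D mRNA in PANC1 was at 119.5%, 395% and 157% of that control with KMT2C siRNA1, siRNA2 and siRNA3, against 83.6% and 85.2% with KMT2D siRNA1 and siRNA2. Of the 979 genes higher in COLO357 at an unadjusted p under 0.05, 73.7% were also higher in PANC1, 78.4% in SUIT2 and 63.1% in both. Of the 798 lower genes, 74.9% were lower in PANC1, 76.6% in SUIT2 and 62.3% in both. Over all 17138 genes tested, 62% had the same sign in PANC1, 64.1% in SUIT2 and 46.6% in both. Across genes, which are not independent replicates, the log2 fold changes correlated at r = 0.24 between COLO357 and PANC1, at 0.27 between COLO357 and SUIT2 and at 0.25 between PANC1 and SUIT2.

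**Figure D5:**
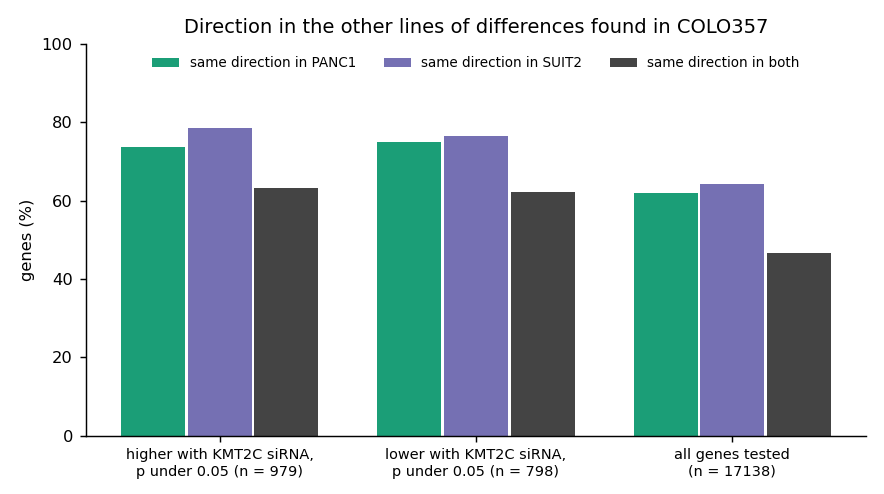
Percent of genes (y axis) whose KMT2C over KMT2D difference had the same direction in PANC1 (green), SUIT2 (purple) or both (black) as in COLO357, for genes higher (n = 979) or lower (n = 798) in COLO357 at an unadjusted p under 0.05 and for all genes tested (n = 17138). The shares in both other lines were 63.1% and 62.3%, against 46.6% of all genes.

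Among the named genes, PIK3CB, CMIP, KRT80 and AGR2 had groups that did not overlap, in the same direction as in COLO357, in both other lines. PIK3CB stood at 115 to 121 CPM with KMT2C siRNA and 32.6 to 47.5 CPM with KMT2D siRNA in PANC1, and at 93.3 to 115 CPM and 31.5 to 34.4 CPM in SUIT2. Its control was at 92.4 CPM in PANC1, between the groups, and at 133 CPM in SUIT2, above every siRNA library. KRT80 stood at 64.4 to 126 CPM with KMT2C siRNA and 33.3 to 40.1 CPM with KMT2D siRNA in PANC1, and at 63.2 to 78.0 CPM and 32.9 to 36.0 CPM in SUIT2. Its control was at 61.9 CPM in PANC1, between the groups, and at 127 CPM in SUIT2, above every siRNA library. AGR2 stood at 82.6 to 129 CPM with KMT2C siRNA and 150.3 to 212 CPM with KMT2D siRNA in PANC1, and at 60.5 to 81.9 CPM and 166 to 259 CPM in SUIT2. Its control was at 159 CPM in PANC1, among the KMT2D libraries. In SUIT2 it was at 72.4 CPM, among the KMT2C libraries, unlike in COLO357, where the KMT2D libraries were near the control. KMT2D itself also had groups that did not overlap, at 30.9 to 102 CPM with KMT2C siRNA and 21.6 to 22.1 CPM with KMT2D siRNA in PANC1, and at 67.7 to 112 CPM and 24.2 to 43.8 CPM in SUIT2. Its control was at 25.9 CPM in PANC1 and 69.5 CPM in SUIT2.

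Of the 12 named genes at a mean of 2 CPM or more in PANC1, 10 had the sign seen in COLO357, and 6 had groups that did not overlap in that direction. Of the 13 such genes in SUIT2, 13 had that sign and 9 had groups that did not overlap in that direction. These counts include KMT2D, a target of the siRNAs, which had that sign and such groups in both lines. Over all genes tested in COLO357 at the same mean level, 65.5% of 11939 had the sign in PANC1 and 19.2% had such groups, and in SUIT2 68.0% of 12308 had the sign and 22.5% had such groups. CCN1 and COL16A1 were the genes of the other sign in PANC1, COL16A1 at 1.502 to 2.54 CPM with KMT2C siRNA and 2.02 to 3.24 CPM with KMT2D siRNA. CCN1 stood there at 422 to 563 CPM with KMT2C siRNA and 276 to 809 CPM with KMT2D siRNA. CDH5, SULT1E1 and FAT2 were at 0.282 CPM or less in every KMT2C and KMT2D library of PANC1 and SUIT2, so the difference could be read in COLO357 alone.

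Whether the contrast in COLO357 differed from that in the other lines was tested in 1 fit of all 18 libraries. Of 21028 genes, edgeR called 0 (0%) at an adjusted p under 0.05, with 785 (3.73%) at an unadjusted p under 0.05, and limma-voom called 0 with 879 at that p. With siRNA as a random block, limma-voom called 0 with 1483 at that p and a smallest adjusted p of 0.26, and edgeR with the replicate block called 0 with 491. The smallest p belonged to LYPLA1, SCUBE3, SBSPON, TNFAIP8 and PTPN13, each with an adjusted p of 0.9999 by edgeR. LYPLA1 (ENSG00000120992), a depalmitoylating thioesterase, stood at 157, 147 and 125 CPM with KMT2C siRNA, against 139 and 112 CPM with KMT2D siRNA, and at 178 CPM in the COLO357 control. In PANC1 it stood at 192, 217 and 179.9 CPM with KMT2C siRNA, against 70.5 and 59.5 CPM with KMT2D siRNA, and in SUIT2 at 254, 180.0 and 144 CPM with KMT2C siRNA, against 84.8 and 68.1 CPM with KMT2D siRNA. The groups thus overlapped in COLO357 and were far apart in the other lines (difference of log2 fold changes -1.32, SE 0.277). LYPLA1 may share reads with its pseudogene copies.

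SCUBE3 (ENSG00000146197), a secreted protein that acts in TGF-beta and BMP signalling, stood at 4.46, 5.17 and 5.56 CPM with KMT2C siRNA, against 1.35 and 2.30 CPM with KMT2D siRNA, in COLO357. In PANC1 the order was the reverse, 4.48, 6.06 and 4.83 CPM with KMT2C siRNA against 6.87 and 9.10 CPM with KMT2D siRNA, and in SUIT2 the groups overlapped, with 3.08, 4.43 and 3.52 CPM with KMT2C siRNA against 3.82 and 4.31 CPM with KMT2D siRNA (difference 1.81, SE 0.386). PTPN13 (ENSG00000163629), a protein tyrosine phosphatase, stood at 226, 223 and 216 CPM with KMT2C siRNA in COLO357, against 313 and 360.1 CPM with KMT2D siRNA. In SUIT2 it stood at 157, 163 and 136 CPM with KMT2C siRNA against 91.7 and 71.2 CPM with KMT2D siRNA. In PANC1 the groups overlapped, at 18.1, 19.1 and 19.5 CPM with KMT2C siRNA against 12.5 and 21.2 CPM with KMT2D siRNA. The difference from the mean of both lines was -1.18 (SE 0.268). TNFAIP8 (ENSG00000145779), a regulator of cell death, stood at 27.8, 25.9 and 26.0 CPM with KMT2C siRNA in COLO357, against 39.2 and 39.1 CPM with KMT2D siRNA. In SUIT2 it stood at 33.7, 33.2 and 34.8 CPM with KMT2C siRNA against 22.7 and 14.9 CPM with KMT2D siRNA, so the order of the groups was reversed (difference -1.16, SE 0.262). SBSPON (ENSG00000164764), a secreted protein with a thrombospondin repeat, was below 1 CPM in every PANC1 library, and its difference was -3.18 (SE 0.707).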

How the data were processed

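Counts were deposited by the authors as 1 table per library, raw read pairs per Ensembl gene. Per the submitters' processing notes, FastQC, TopHat2, HTSeq and edgeR were used with hg19. No source used here gives versions, the annotation release or the strand setting; overlapping and antisense genes may share reads. Per the labels' protocols samples were randomised over 7 pools. The pool of each library is not given, so no batch could be entered. Entries that name no gene (38.5% to 53.4% of read pairs in COLO357) were left out of library sizes and tests. Symbols were matched for 52181 of 63677 identifiers (81.9%).

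The main test was edgeR 4.0.16 (R 4.3.3), quasi-likelihood with robust estimation, TMM factors (0.964 to 1.02) and the filter by expression (minimum count 10, total 15), on the 5 libraries, with Benjamini-Hochberg adjustment over all genes and a call at an adjusted p under 0.05. Residual degrees of freedom were 3 and the common coefficient of variation 0.212. The SE was taken from the test (log2 fold change divided by the root of F). CPM uses the gene counts alone. The difference between lines used 9 groups of line by target (21028 genes). On simulated counts for the 5 libraries (17130 genes), 31% of 100 genes changed 2-fold and 90% of 100 changed 4-fold were called. Of the 135 genes called there, 14 were false. The simulation gave every gene the same dispersion and no spread particular to a siRNA, so these shares do not give the power in the data. DESeq2 1.42.0 and limma-voom 3.58.1 were alternatives, as were other scalings, no filter, protein-coding genes only, a replicate block and leaving out each library. No pair of libraries agreed within sampling noise (chi-square per gene 32.1 to 85.4).

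The members and the 37 lists were chosen with earlier results of these data known. Named genes had groups that do not overlap, an official symbol and at least 2 CPM on average, 10 per direction by size among called genes and otherwise by smallest p; lists give the 2 members of smallest p, others at an unadjusted p under 0.05 having been added after the values were seen. All 15 mitochondrially encoded genes are listed at 0 in every library. PAGR1, PCGF2, UHRF1 and ACACA had no match by symbol. A gene that the naming rule chose and some list members are not reported here.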

Additional observations from a re-analysis of the deposited data

Results flagged for a closer look

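In the COLO357 library with KMT2C siRNA3, 30.4% of read pairs lay in no annotated feature, against 14.5% in the COLO357 control library. These read pairs lie outside the gene counts that were compared. The other COLO357 libraries held 13.5% and 13.1% with KMT2C siRNA and 12.1% and 10.2% with KMT2D siRNA. In the same library the identifier with the highest count was ENSG00000226958, to which no symbol was matched, with 2.49% of gene counts, whereas 7SK led in the other 5 COLO357 libraries with 1.73% to 2.03%.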

How the results depend on the processing

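The count of genes called between KMT2C and KMT2D siRNA in COLO357 was 0 by edgeR, and 347 with no filter on low counts, 177 by DESeq2 and 1 with 18 libraries in 9 groups. For the difference between lines it was 0, and 18 with no filter. The log2 fold change of KMT2D mRNA, 1.82 at an adjusted p of 0.156, passed the threshold with no filter (1.78, adjusted p = 1.56e-08) and by DESeq2 (1.82, adjusted p = 1.55e-06). The cause was not tested. Under relative log expression, library size alone, protein-coding genes, limma-voom with or without siRNA as a random block, the control as a group of its own, edgeR without robust estimation (chosen after seeing the data) and each library left out, 0 genes were called in COLO357, with 944 to 2357 at an unadjusted p under 0.05. Without a replicate of KMT2C or KMT2D the log2 fold change ranged from -0.79 to -0.39 for KMT2C mRNA and from 1.54 to 1.97 for KMT2D mRNA. Without KMT2C siRNA3, 944 genes were at an unadjusted p under 0.05, against 1777. The replicate block called 0 genes, with 1445 at an unadjusted p under 0.05 and a smallest adjusted p of 0.421. The numbers name different siRNAs and do not by themselves pair the libraries. The deviations of same-numbered libraries in COLO357 correlated at 0.077 and 0.112. With 2 KMT2D libraries the deviations from their mean mirror each other. The different-numbered pairs of KMT2C siRNA1 and siRNA2 were thus at -0.077 and -0.112 by construction, and the correlations cannot decide whether libraries are paired. All 19 named genes kept their sign in each leave-one-out fit. The rule that named them asked for groups that do not overlap, which all but fixes this outcome, so it is no check of the genes. Under the alternatives, 27 values of list medians moved by more than the spread between libraries and 533 did not. The Polycomb median was -0.07 with the replicate block, the p53 median 0.02 without KMT2D siRNA1, and the glycolysis median 0.15 without KMT2D siRNA2. The interferon median was -0.13 without KMT2D siRNA2, the DNA damage median -0.07 without it, and the cholesterol median 0.20 without KMT2D siRNA1 and -0.20 without KMT2D siRNA2. With 2 KMT2D libraries, leaving out either leaves 1, which is assumed to vary like the KMT2C libraries.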

Other observations

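Some genes differed between the KMT2C siRNAs and were picked here after their values were seen. SETD7, an H3K4 monomethyltransferase, stood at 222, 63.3 and 195 CPM with KMT2C siRNA1, siRNA2 and siRNA3, against 209 and 221 CPM with KMT2D siRNA, and at 205 CPM in the control, so that KMT2C siRNA2 was alone below the other libraries. CLDN4, a tight junction claudin, stood at 72.8, 12.5 and 45.1 CPM with KMT2C siRNA, against 24.3 and 28.9 CPM with KMT2D siRNA, and at 18.3 CPM in the control. COL1A1, a fibrillar collagen and fibroblast marker, stood at 65.3, 149 and 65.9 CPM with KMT2C siRNA, against 21.5 and 51.9 CPM with KMT2D siRNA, and at 45.2 CPM in the control. None of these 3 genes was called by edgeR in the contrast of the targets.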
